A study of Mus musculus with 6 samples.

Results

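The 40 mouse genes described here form the p53 and Rb growth-arrest network. It holds the p53 core, the CDK inhibitors, the D cyclins with their kinases and Rb1, and genes of apoptosis, DNA repair and stress. Many of the apoptosis, repair and stress genes are p53 targets. The 40 genes were chosen by name, with earlier results of these data known. Each was measured through the probe sets annotated to it and to no other gene. Of the 40 genes, 38 had such a probe set, among 18193 genes measured in this way. Trp53 and Gdf15 had none and were not analysed here. The 38 genes were covered by 81 probe sets, and all 38 passed the filter on low values.

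Total RNA of 2 kinds of cultured bone marrow stromal cells was hybridised to Affymetrix mouse expression arrays, with 3 arrays for mesenchymal stem cells (MSC) and 3 for neural crest stem cells (NCSC). All cells came from adult mice aged 10 weeks, on a mixed C57BL/6 x SV129 background, with the genotype wnt1/CRE-R26R-lacZ. In such mice a Cre recombinase under Wnt1 control switches on a lacZ reporter in cells of neural crest origin, and MSC and NCSC carried the same alleles. Cells of both groups were untreated and were kept in Mesencult medium for at least 5 passages, after which clones were selected. The submitters call the 3 arrays of a group biological replicates. The labels do not say whether they came from separate animals or clones, so the p-values measure the spread between these cultures, which may be narrower than that between mice. The 3 arrays in a group also limit the precision of every value.

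The p53 protein is a transcription factor that is stabilised by DNA damage and other stress and that switches on genes for cell-cycle arrest, repair and cell death. Mdm2 is at once its target and the ligase that degrades it. One of its targets, Cdkn1a (p21), blocks cyclin-dependent kinases, as do the Ink4 inhibitors of Cdk4 and Cdk6. When cyclin D with Cdk4 or Cdk6 is active, Rb1 is phosphorylated and releases the E2F factors that start DNA replication. In cultured marrow stromal cells this network is known for setting growth arrest and senescence over passages.

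Exact matches to a p53 element were sought near the start of these genes. Windows from 250 bases before to 50 bases after each transcription start were searched. The windows are RefSeq sequences of build GRCm38.p6 and held 28 of the 38 genes. The p53 consensus decamer, a palindrome and therefore the same on both strands, was found in 8 of these 28 genes, against 9.55% of the 27025 genes and 8.36% of the 32851 windows in the table. The 8 genes were Mdm2, Cdkn1a, Ccng1, Gadd45a, Sesn1, Ei24, Aen and Polk. Only Cdkn1a held 2 decamers at most 13 bases apart, the spacing of a full p53 site, which 0.0731% of all windows held. Of the 28 genes, 15 were lower in NCSC, 8 higher and 5 not called, and of the 8 with a decamer, 6 were lower, 1 higher and 1 not called. Whether the decamer goes with a direction was not tested. The 6 windows printed here are those of 6 of the 8 genes, 5 lower and 1 higher in NCSC. Sesn1, which was not called, and Aen, whose probe sets disagree, are left out. They run 5′ to 3′ on the gene's own strand, with each decamer in capitals.
Cdkn1a: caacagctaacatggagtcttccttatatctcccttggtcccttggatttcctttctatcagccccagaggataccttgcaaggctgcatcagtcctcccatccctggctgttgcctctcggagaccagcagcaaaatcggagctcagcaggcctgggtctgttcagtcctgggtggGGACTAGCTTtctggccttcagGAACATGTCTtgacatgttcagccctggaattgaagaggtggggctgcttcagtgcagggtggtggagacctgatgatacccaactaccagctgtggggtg
Ccng1: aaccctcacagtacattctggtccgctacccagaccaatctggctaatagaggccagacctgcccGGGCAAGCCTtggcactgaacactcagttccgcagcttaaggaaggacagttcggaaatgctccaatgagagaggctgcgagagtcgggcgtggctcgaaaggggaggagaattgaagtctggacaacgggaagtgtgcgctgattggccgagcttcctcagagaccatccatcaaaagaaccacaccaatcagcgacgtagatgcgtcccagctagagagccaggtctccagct
Mdm2: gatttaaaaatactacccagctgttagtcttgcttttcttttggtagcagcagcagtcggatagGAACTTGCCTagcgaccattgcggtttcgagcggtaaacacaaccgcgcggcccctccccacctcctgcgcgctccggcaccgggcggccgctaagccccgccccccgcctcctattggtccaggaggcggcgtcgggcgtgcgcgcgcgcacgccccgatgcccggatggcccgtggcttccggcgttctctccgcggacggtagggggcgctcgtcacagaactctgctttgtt
Ei24: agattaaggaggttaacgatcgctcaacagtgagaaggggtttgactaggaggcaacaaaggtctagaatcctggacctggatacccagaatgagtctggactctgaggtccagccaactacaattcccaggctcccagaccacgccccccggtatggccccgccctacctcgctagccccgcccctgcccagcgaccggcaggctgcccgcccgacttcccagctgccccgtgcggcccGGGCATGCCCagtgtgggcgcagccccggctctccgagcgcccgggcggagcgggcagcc
Polk: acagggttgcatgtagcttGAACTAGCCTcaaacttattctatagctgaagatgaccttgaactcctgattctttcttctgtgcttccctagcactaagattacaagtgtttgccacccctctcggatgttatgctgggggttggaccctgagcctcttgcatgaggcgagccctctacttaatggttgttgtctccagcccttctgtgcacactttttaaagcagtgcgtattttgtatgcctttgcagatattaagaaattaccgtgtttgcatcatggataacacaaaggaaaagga
Gadd45a: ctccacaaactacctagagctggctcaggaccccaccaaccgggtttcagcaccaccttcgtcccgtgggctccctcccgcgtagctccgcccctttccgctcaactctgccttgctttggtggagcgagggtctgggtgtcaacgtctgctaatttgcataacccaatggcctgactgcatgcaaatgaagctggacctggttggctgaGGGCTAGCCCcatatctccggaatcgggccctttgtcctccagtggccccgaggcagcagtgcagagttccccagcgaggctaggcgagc
The Cdkn1a window lies at chr17:29090729-29091028 on the plus strand, and its decamers GGACTAGCTT and GAACATGTCT begin 73 and 51 bases before the start, 12 bases apart. Only exact matches are in capitals. The bases tgacatgttc, directly after GAACATGTCT, miss the consensus at their first letter alone. The other 5 windows lie on the minus strand, at chr11:40755237-40755536 for Ccng1, chr10:117710709-117711008 for Mdm2, chr9:36797285-36797584 for Ei24, chr13:96519138-96519437 for Polk and chr6:67037358-67037657 for Gadd45a. Their decamers begin 185, 186, 10, 231 and 40 bases before the start, in the same order. A second element, GTAAACA, bound by the FoxO factors, was searched on both strands and overlapped no p53 decamer. It was found in 4 of the 28 genes, Mdm2, Sesn1, Bbc3 and Ccnd3, against 4.05% of all genes. A match describes the letters and does not show binding, and many p53 sites lie outside such a window.

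Before the levels are given, the labels were set against marker genes. The 6 measured NCSC markers had a summed intensity of 183 to 318 on the MSC arrays and 21311 to 26206 on the NCSC arrays. The neural crest factor Sox10 stood at a log2 level of 3.92 to 4.82 on the MSC arrays and 12.62 to 13.08 on the NCSC arrays. The glial receptor Erbb3 was at least 474-fold and the neurotrophin receptor Ngfr at least 257-fold higher in NCSC. Erbb3, Ngfr and Foxd3 were under the limit on all MSC arrays and passed the filter only through NCSC, so a count of markers that passed does not bear on the label. S100b, which did not pass, had a log2 level of 7.72 and 7.29 on NCSC 1 and NCSC 2 and of 2.15 on NCSC 3 and the MSC arrays in its brighter probe set. MSC markers did not separate in one direction: 4 of 7 tested were higher in NCSC and 3 were lower, and Thy1 and Lepr were under the limit on all 6 arrays. Ptprc, which marks blood cells, and 5 of 5 endothelial markers were at the lowest value on all arrays. The 11 measured macrophage and blood markers summed to 829 to 956 in NCSC and 186 to 210 in MSC. Of the 4 that passed the filter, 3 were called higher in NCSC and 0 lower. Lyz2 was higher by 1.87 to 2.13 over the alternative settings given below. Cd68, which passed only through NCSC, stood at 8.75 to 8.89 in NCSC and 2.22 to 3.15 in MSC. Cd14, which did not pass, went the other way, at 2.16 to 2.19 in NCSC and 3.96 to 5.15 in MSC. Adgre1, Itgam and Tyrobp were far under the limit on every array. The labels call all mice female, which the arrays go against: Xist was under the limit on all 6 arrays, while the Y-linked genes Eif2s3y and Uty were above it on all 6. The Y-linked Kdm5d was at least 28.4-fold higher in NCSC. The part of these label differences in the results was not tested.

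Levels are log2 values of the deposited intensities, and every difference is the NCSC mean minus the MSC mean on that scale, given with its standard error. A gene counted as changed when its adjusted p in limma, over all 10501 genes tested, was under 0.05. Of all genes, 64.1% changed, 35% higher and 29.1% lower in NCSC. Of the 38 measured network genes, 31 changed (81.6%), 11 higher (28.9%) and 20 lower (52.6%). At 2-fold or more, 15 were lower (39.5%) against 14% of all genes, and 2 were higher (5.26%) against 15.1%. The median difference of the 38 genes was -0.71, beside 0.056 for all genes tested. The genes were chosen with earlier results of these data known, so these shares are a description and not a test. The arrays of the groups did not overlap for 32 of the 38 genes, 21 of them lower and 11 higher, where 32% and 39.2% of all genes did so. For 15 of the 38 genes the 95% interval lay within 1 log2 unit on either side of 0, against 55.3% of all genes. The network genes called higher numbered 7 without MSC 1 and 7 without MSC 3. The share of all genes called in either direction also fell, to 54.8% without MSC 1 and 54.3% without MSC 3. Perp and Plk3, 2 of the 20 lower genes, passed the filter only through MSC. With log2 above 4 required on all 6 arrays, 28 of 35 tested network genes were called, 11 higher and 17 lower. In that setting 61.7% of all genes changed. The 38 genes were read from bulk cultures, in which fewer cells of a type and less RNA per cell cannot be told apart.

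**Figure D1:**
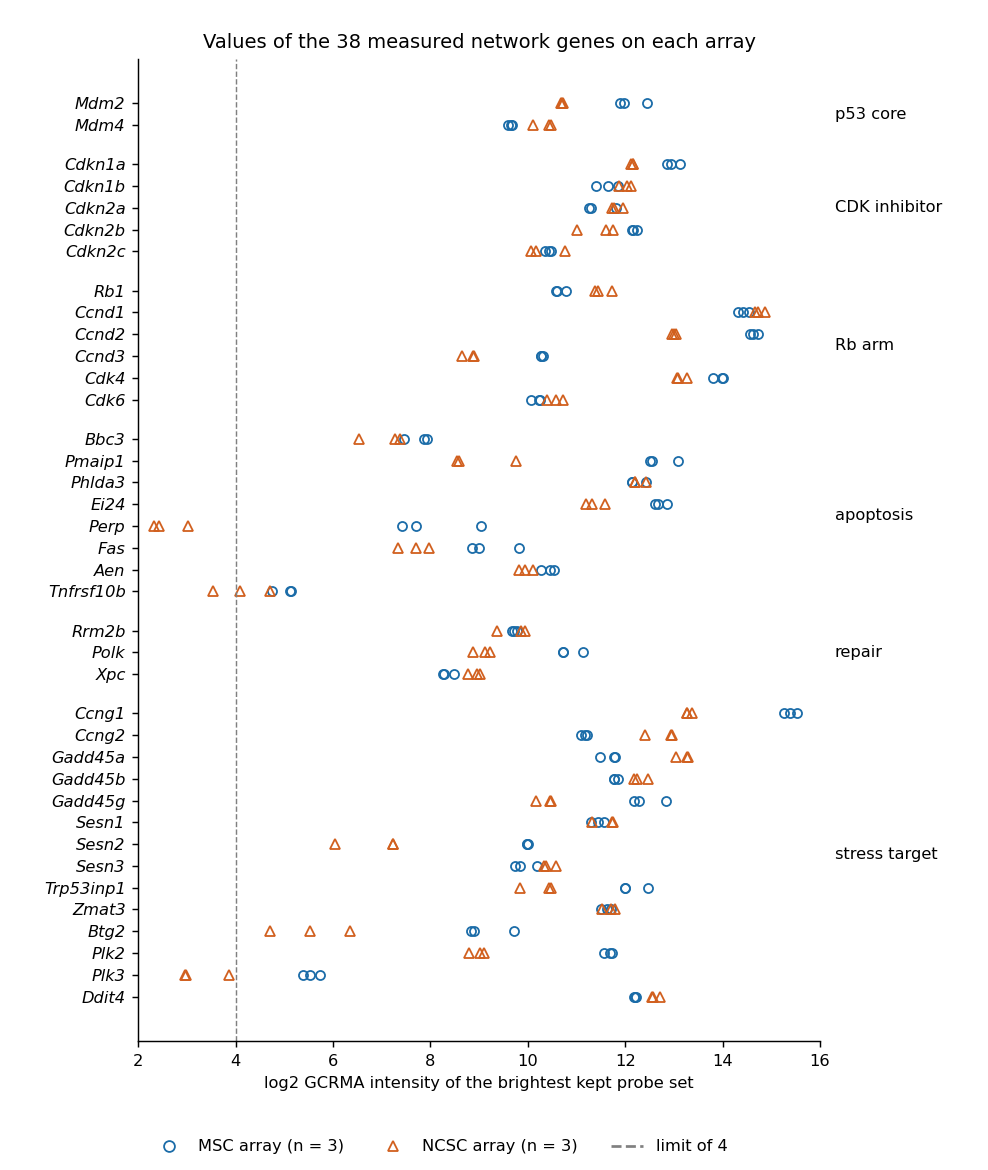
Log2 level of each of the 38 measured genes (rows, by role) on each of the 6 arrays (circles MSC, triangles NCSC), with the limit of 4 as a dashed line. Genes lower in NCSC, such as Ccng1 at 13.26 to 13.38 against 15.26 to 15.53 in MSC, show separated points, while those of Zmat3 and Phlda3 lie on top of each other.

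**Figure D2:**
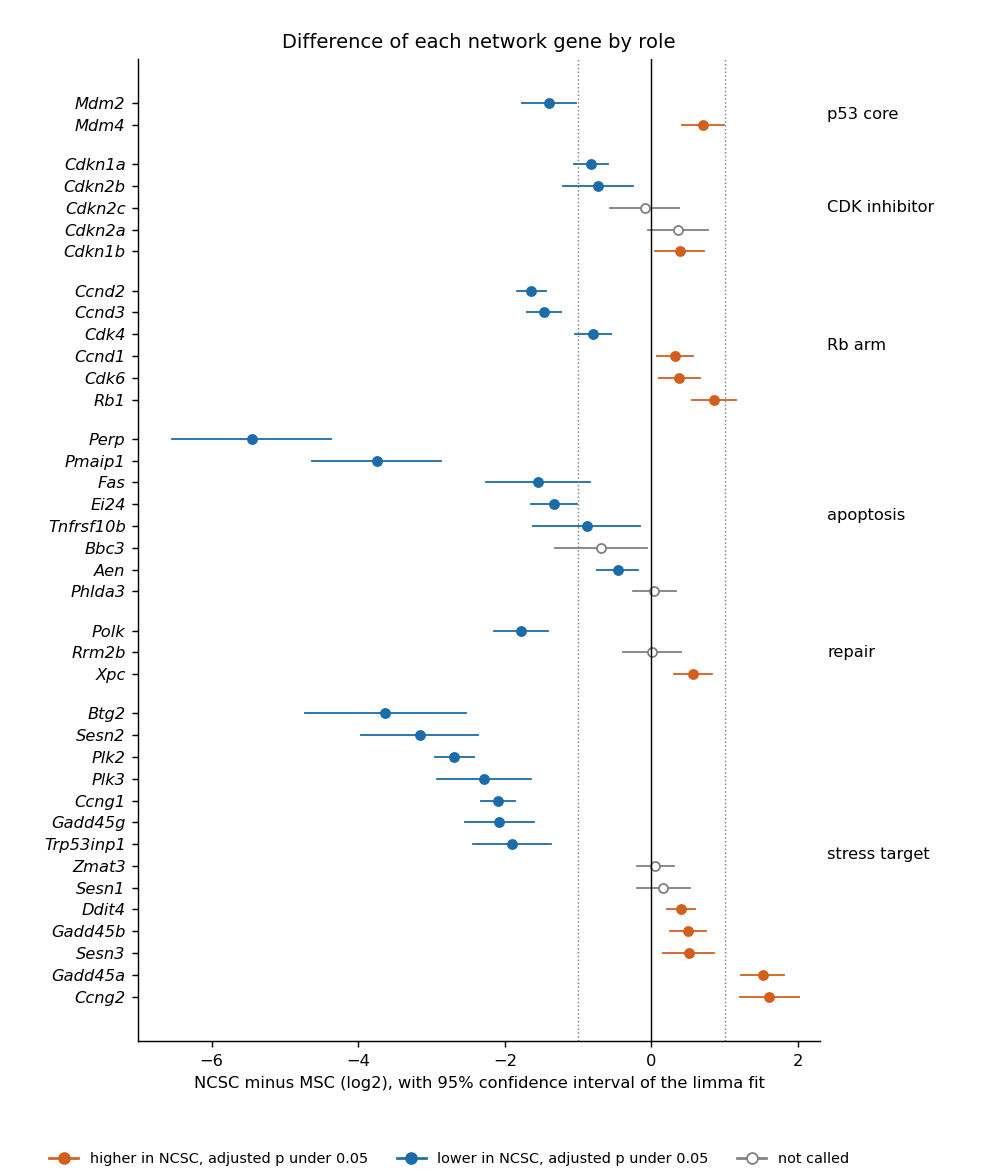
Difference in log2 level, NCSC minus MSC, for each gene (points) with its 95% confidence interval (bars), by role. The points run from -5.46 for Perp to 1.61 for Ccng2, and 20 changed genes lie to the left of 0 and 11 to the right.

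In the p53 core, Mdm2 was lower and Mdm4 higher in NCSC. Mdm2, the ubiquitin ligase whose window is printed above, stood at 11.98, 12.44 and 11.90 on MSC 1 to 3 and at 10.69, 10.72 and 10.70 on NCSC 1 to 3. The arrays did not overlap, and MSC 2 was the highest. Mdm2 fell by 1.40 ± 0.15 (adjusted p = 0.000384), a 2.64-fold difference. Mdm4, its partner that inhibits p53 without degrading it, stood at 9.59, 9.67 and 9.66 in MSC and 10.48, 10.44 and 10.11 in NCSC, again without overlap. It was higher by 0.70 ± 0.12 (adjusted p = 0.00265), but in its second kept probe set the difference was 0.20, without a call.

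Among the 5 CDK inhibitors, 2 were lower, 1 was higher and 2 were not called. The share called was 60%, near the 64.1% of all genes. Cdkn1a stood at 12.94, 13.13 and 12.86 in MSC and at 12.16, 12.12 and 12.17 in NCSC. Every NCSC array lay under every MSC array, a drop of 0.82 ± 0.094 (adjusted p = 0.000469; 1.77-fold). Cdkn2b (p15), an Ink4 inhibitor, stood at 12.17, 12.24 and 12.14 in MSC and at 11.60, 11.75 and 11.01 in NCSC, with NCSC 3 the lowest. It fell by 0.73 ± 0.20 (adjusted p = 0.0179), but was not called without MSC 1 (0.0514) or without MSC 2 (0.0545), in a range of 0.0026 to 0.0743 over its alternatives. Cdkn1b (p27), which holds cyclin E with Cdk2 in check, was higher by 0.38 ± 0.14 (adjusted p = 0.0486), with 11.39, 11.84 and 11.64 in MSC and 12.11, 12.04 and 11.87 in NCSC. This call sat at the threshold and was lost without MSC 1 (0.133), MSC 3 (0.109), NCSC 1 (0.14) or NCSC 2 (0.122), in a range of 0.0038 to 0.245. Adjusted over probe sets instead of genes, neither of its 2 kept probe sets was called.

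Cdkn2a, the locus of p16 and Arf, and Cdkn2c (p18) were the 2 not called. Cdkn2a stood at 11.25, 11.81 and 11.30 in MSC and 11.74, 11.77 and 11.96 in NCSC, so that MSC 2 lay among the NCSC arrays. Its difference was 0.37 with a 95% interval of -0.04 to 0.78 (adjusted p = 0.1), and without MSC 2 it was called higher (0.00747; range 0.0027 to 0.326). The files do not say which of the p16 and Arf transcripts its probe set reads. Cdkn2c had a difference of -0.09 (interval -0.56 to 0.38). It was called lower, by 0.31, without NCSC 3 (adjusted p = 0.0184; range 0.0184 to 1), the array on which it was highest, at 10.77 against 10.17 and 10.07.

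In the Rb arm, 3 of 6 genes were lower (50%) and 3 were higher (50%), against 29.1% and 35% of all genes. The D cyclins did not move together. Ccnd2, the cyclin D2 gene, stood at 14.62, 14.73 and 14.56 in MSC and between 12.95 and 13.05 on the NCSC arrays. The groups were far apart relative to the spread of either, and Ccnd2 fell by 1.64 ± 0.082 (adjusted p = 1.52e-05; 3.11-fold). All 7 of its kept probe sets were lower, by 1.64 to 2.49. Ccnd3, the cyclin D3 gene, fell by 1.47 ± 0.094 (adjusted p = 4.5e-05), with 10.26, 10.31 and 10.26 in MSC and 8.88, 8.65 and 8.89 in NCSC. Ccnd1, the cyclin D1 gene, was higher in NCSC by 0.33 ± 0.10 (adjusted p = 0.03), with 14.42, 14.55 and 14.32 in MSC and 14.72, 14.66 and 14.88 in NCSC. Leaving out MSC 1 (0.0859), MSC 3 (0.104), NCSC 1 (0.0678) or NCSC 3 (0.0538) ended the Ccnd1 call, in a range of 0.0047 to 0.147.

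The D-cyclin kinases also differed in direction. Cdk4 stood at 13.98, 13.80 and 14.02 in MSC and at 13.09, 13.06 and 13.26 in NCSC, a drop of 0.80 ± 0.10 (adjusted p = 0.000752). Cdk6 was higher by 0.38 ± 0.11 (adjusted p = 0.027), with 10.23, 10.06 and 10.25 in MSC and 10.58, 10.39 and 10.72 in NCSC. Its call was lost without MSC 1 (0.0606), MSC 2 (0.0694), MSC 3 (0.0547) or NCSC 1 (0.0763), in a range of 0.0158 to 0.0841. Rb1, the gene of the pocket protein these kinases act on, was higher without overlap, at 10.61, 10.79 and 10.58 in MSC and 11.43, 11.37 and 11.73 in NCSC, a difference of 0.85 ± 0.13 (adjusted p = 0.00147).

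Of the 8 apoptosis genes, 6 were lower in NCSC (75%), against 29.1% of all genes, and 2 were not called. With log2 above 4 required on all 6 arrays, 6 of these genes were tested and 4 were lower. In that setting 61.7% of all genes changed in either direction. Perp, a membrane protein gene that p53 induces in dying cells, stood at 7.70, 9.04 and 7.41 in MSC and at 2.42, 2.33 and 3.02 in NCSC, where all 3 arrays were under the limit of 4. Counting NCSC arrays at the limit, Perp was at least 16.5-fold lower, or at least 11.7-fold lower without MSC 2, the highest array. Perp passed the filter only through MSC, and so its call carries no weight beyond these levels. Pmaip1, which encodes the BH3-only protein Noxa, stood at 12.55, 13.07 and 12.52 in MSC and at 8.54, 8.59 and 9.76 in NCSC. NCSC 3 was the highest of its group and still far under MSC, and Pmaip1 fell by 3.75 ± 0.36 (adjusted p = 0.000228; 13.5-fold).

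Fas, the death receptor gene, fell by 1.55 ± 0.29 (adjusted p = 0.0042), with 8.85, 9.81 and 8.99 in MSC and 7.71, 7.97 and 7.32 in NCSC. Ei24, a p53-induced gene of an endoplasmic reticulum protein, has the decamer closest to the start of the 6 printed. It stood at 12.66, 12.85 and 12.60 in MSC and 11.20, 11.32 and 11.59 in NCSC. Its drop of 1.33 ± 0.13 (adjusted p = 0.000233) was larger than the spread of either group. Aen, an apoptosis-enhancing nuclease gene, fell by 0.46 ± 0.12 (adjusted p = 0.0133), while its other 2 kept probe sets differed by 0.05 and -0.04 and were not called, and the mean of its probe sets was not called either. Tnfrsf10b, the TRAIL receptor gene, was dim, at 5.11, 4.75 and 5.13 in MSC and 3.54, 4.10 and 4.71 in NCSC, and fell by 0.88 ± 0.30 (adjusted p = 0.0403). That call was lost without MSC 1 (0.11), MSC 2 (0.0571), MSC 3 (0.112), NCSC 1 (0.0818) or NCSC 2 (0.102), in a range of 0.0008 to 0.196.

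Bbc3, the gene of the BH3-only protein Puma, was not called although its arrays did not overlap. It stood at 7.86, 7.45 and 7.93 in MSC and at 7.38, 7.27 and 6.53 in NCSC, a difference of -0.69 (95% interval -1.32 to -0.06; adjusted p = 0.0554). Without NCSC 1 it was called lower (0.0489; range 0.0027 to 0.178). Phlda3, which p53 induces and which restrains Akt, had a difference of 0.04 (interval -0.25 to 0.34), so a difference of more than 0.34 on the log2 scale was outside its interval.

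Of the 3 repair genes, 1 was lower (33.3%), 1 higher (33.3%) and 1 not called, near the 29.1% and 35% of all genes. Polk, the gene of a translesion DNA polymerase, stood at 10.71, 11.13 and 10.72 in MSC and 9.22, 9.12 and 8.88 in NCSC. All NCSC arrays were lower, by 1.78 ± 0.15 on average (adjusted p = 0.000143; 3.44-fold). Xpc, which recognises damage in nucleotide excision repair, was higher by 0.57 ± 0.11 (adjusted p = 0.00428), with 8.27, 8.49 and 8.28 in MSC and 9.02, 8.96 and 8.77 in NCSC. Rrm2b, the p53-induced subunit of ribonucleotide reductase, had a difference of 0.01 (interval -0.38 to 0.40).

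Of the 14 measured stress targets, 7 were lower (50%) and 5 higher (35.7%), against 29.1% and 35% of all genes. Ccng1, the gene of cyclin G1, stood at 15.26, 15.53 and 15.39 in MSC and 13.26, 13.38 and 13.26 in NCSC. It fell by 2.10 ± 0.097 (adjusted p = 1.04e-05; 4.28-fold) without overlap, and its 3 kept probe sets were lower by 2.10 to 3.33. Ccng2, the gene of cyclin G2 and a FoxO target, moved the other way, from 11.17, 11.20 and 11.09 in MSC to 12.94, 12.95 and 12.40 in NCSC. Its rise of 1.61 ± 0.16 (adjusted p = 0.000294; 3.05-fold) was the highest among the 38 genes.

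The Gadd45 genes, small stress proteins that bind Cdk1 and p38 pathway kinases, were split. Gadd45a stood at 11.77, 11.49 and 11.79 in MSC and 13.26, 13.29 and 13.05 in NCSC, higher by 1.52 ± 0.12 (adjusted p = 0.000108). It was 1 of the 6 genes with a decamer printed above, and the only one of them to be higher. Those 6 were chosen in part by whether the gene was called. Gadd45b was higher by 0.50 ± 0.10 (adjusted p = 0.00533), with MSC arrays at 11.76 to 11.86 and NCSC arrays at 12.18 to 12.46. Gadd45g stood at 12.18, 12.83 and 12.29 in MSC and at 10.45, 10.48 and 10.16 in NCSC, a drop of 2.07 ± 0.19 (adjusted p = 0.000202; 4.21-fold).

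The sestrins, which restrain mTORC1 under stress, were likewise unlike each other. Sesn2 stood at 9.98, 10.01 and 9.99 in MSC and at 7.22, 7.23 and 6.04 in NCSC. The MSC arrays were nearly equal and NCSC 3 was the lowest, and Sesn2 fell by 3.16 ± 0.33 (adjusted p = 0.000312; 8.95-fold). Sesn3, at 9.84, 10.19 and 9.74 in MSC and 10.37, 10.34 and 10.59 in NCSC, was higher by 0.51 ± 0.14 (adjusted p = 0.0216). That call was lost without MSC 1 (0.0738), MSC 3 (0.0727) or NCSC 3 (0.0511), in a range of 0.0012 to 0.123. Sesn1 had a difference of 0.16 (interval -0.20 to 0.52) and was called only without NCSC 3 among the arrays left out (0.0424; range 0.0118 to 0.848).

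Btg2, an antiproliferative gene, and the polo-like kinase genes Plk2 and Plk3 were all lower in NCSC. Btg2 stood at 8.84, 9.72 and 8.90 in MSC and at 5.52, 6.35 and 4.70 in NCSC, a drop of 3.63 ± 0.45 (adjusted p = 0.000706; 12.4-fold). Plk2 stood at 11.56, 11.72 and 11.70 against 8.79, 9.02 and 9.11, and fell by 2.69 ± 0.11 (adjusted p = 6.37e-06; 6.44-fold). Both were far outside the spread of their replicates. Plk3 was under the limit on every NCSC array, at 2.95, 3.85 and 2.98 against 5.73, 5.37 and 5.53 in MSC, which is at least 2.92-fold lower. Like Perp, Plk3 passed the filter only through MSC.

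Trp53inp1, a p53-induced nuclear protein gene, stood between 11.99 and 12.47 in MSC and at 10.43, 10.48 and 9.85 in NCSC, a drop of 1.90 ± 0.22 (adjusted p = 0.000514). Ddit4, which restrains mTORC1 in low oxygen, was higher by 0.40 ± 0.080 (adjusted p = 0.00518), with NCSC arrays at 12.55 to 12.71 and MSC arrays at 12.19 to 12.23. Zmat3, a p53-induced zinc finger gene that regulates splicing, had a difference of 0.05 (interval -0.20 to 0.30).

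**Figure D3:**
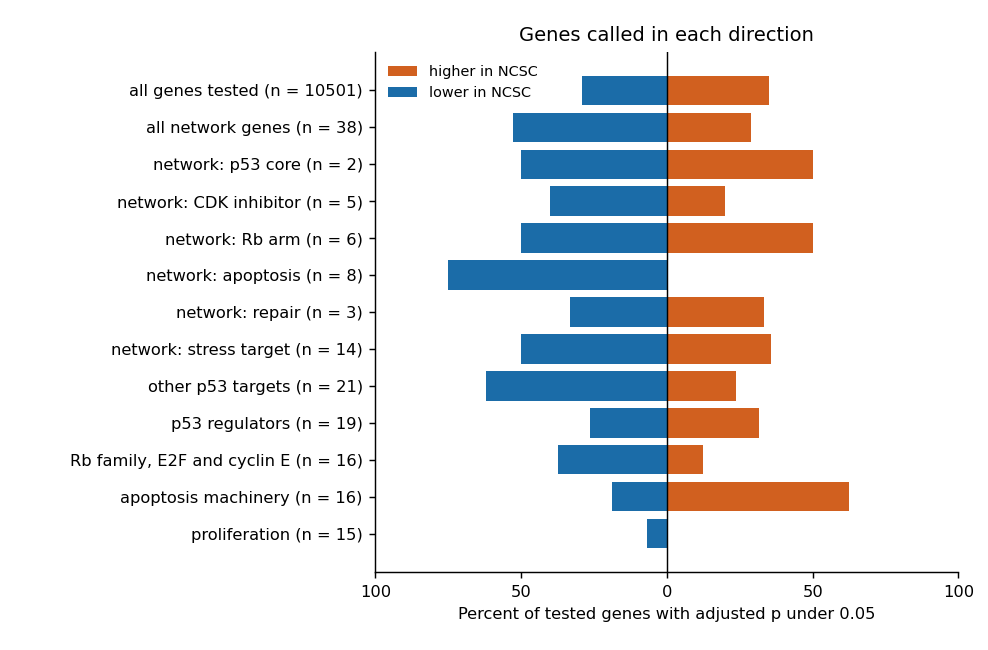
Percent of tested genes changed higher and lower in NCSC (bars) for all 10501 genes, the 38 network genes, their roles and 5 other lists. Lower genes are 52.6% of the network genes and 29.1% of all genes.

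Genes with several probe sets gave the same direction in nearly all cases. Of the 81 probe sets, 69 were kept, and 50 of these changed, 36 lower and 14 higher, where 60.1% of all kept probe sets changed, 27.2% lower and 33% higher. Of the 19 genes with more than 1 kept probe set, 18 had the same sign in all of them, and Aen did not. Sizes varied: Ccng2 was higher by 1.61 and 2.43 in its 2 probe sets, and Tnfrsf10b was lower by 0.88 and 2.05. The Tnfrsf10b probe set lower by 2.05 was under the limit on all NCSC arrays, at 2.55, 3.19 and 3.59. Like those of Perp and Plk3, it passed the filter only through MSC, so its call and sign carry no weight beyond these levels. The 36 lower probe sets include it and those of Perp and Plk3.

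**Figure D4:**
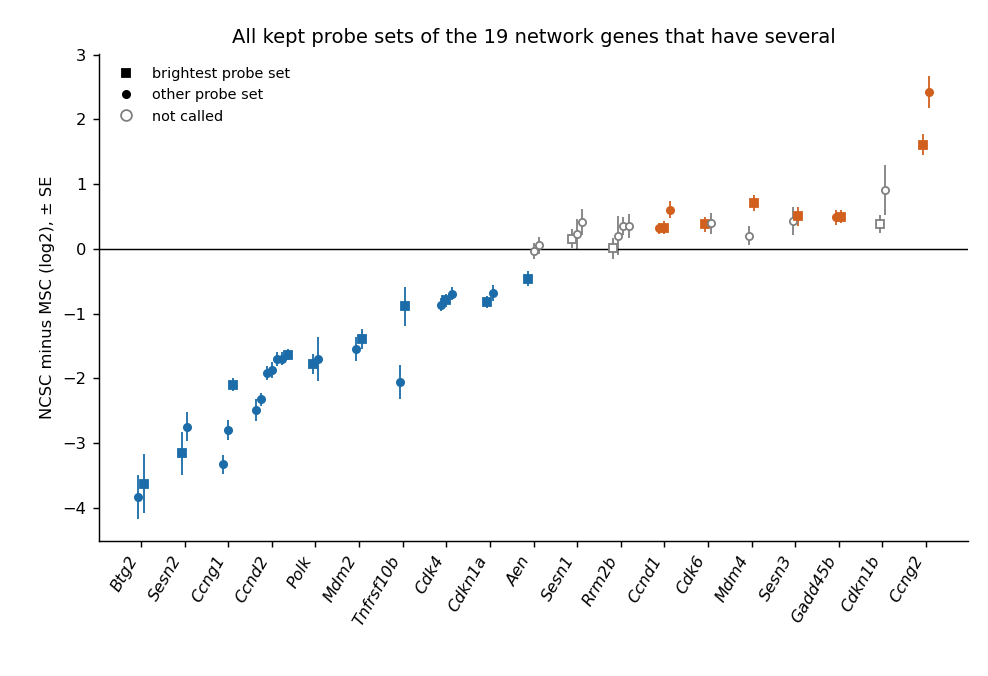
Difference in log2 level, NCSC minus MSC, for every kept probe set (symbols, squares for the brightest, open where not called) of the genes with more than 1, with bars of 1 standard error. The 7 Ccnd2 points lie between -2.49 and -1.64, and those of Aen lie on both sides of 0.

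Other gene lists, also chosen with earlier results of these data known, are described here. They are read beside the 35% higher, 29.1% lower and median of 0.056 of all genes tested. Of p53 targets outside the set, 21 of 26 measured were tested, and 13 were lower (61.9%) and 5 higher (23.8%), with a median difference of -0.85. Rprm, a G2 arrest gene, was at least 31.7-fold lower, and Dcxr, a xylulose reductase gene, fell by 2.96 ± 0.19. Tgfa, a growth factor gene, was higher by 3.64 ± 0.36, and Cyfip2 was at least 5.45-fold higher. Rprm passed the filter only through MSC and Cyfip2 only through NCSC, so their calls carry no weight beyond these levels. With log2 above 4 required on all 6 arrays, 19 of these targets were tested, 12 lower and 4 higher. In that setting 61.7% of all genes changed. Among 19 regulators of p53, 6 were higher (31.6%) and 5 lower (26.3%), shares close to those of all genes, with a median of 0.22. Ppp1r13b and Trp53bp2, which encode the p53-binding proteins ASPP1 and ASPP2, were higher by 4.32 ± 0.23 and 1.01 ± 0.13. Chek1, the checkpoint kinase gene, fell by 1.80 ± 0.37, and Twist1 fell by 1.92 ± 0.25. The regulators' counts moved to 3 higher and 5 lower without MSC 1, MSC 3 or NCSC 1, and to 5 higher and 8 lower without NCSC 3. The share of all genes changed moved as well, from 64.1% to 54.8%, 54.3%, 55.3% and 68.4%, in the same order.

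The general apoptosis machinery, 16 genes tested, was mostly higher: 10 genes were higher (62.5%) and 3 lower (18.8%), with a median of 0.48. Bmf, a BH3-only gene, was higher by 5.92 ± 0.32, and Bcl2, which protects mitochondria, by 1.25 ± 0.10. Of 16 Rb family, E2F and cyclin E genes tested, 2 were higher (12.5%) and 6 lower (37.5%), with a median of -0.34. E2f7, Ccne2 and Tfdp1 fell by 2.09 ± 0.38, 1.60 ± 0.27 and 1.58 ± 0.16. Rbl1 (p107) was higher by 1.20 ± 0.31, at 10.04, 10.12 and 11.17 on NCSC 1 to 3. Its call was lost in 4 of 18 alternatives, among them without MSC 2 (adjusted p = 0.0522), in a range of 0.0009 to 0.0987.

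Of the remaining CDK inhibitors, Cdkn1c (p57) was at the lowest value on all arrays, and Cdkn2d and Cdkn3 were not called in limma, though Cdkn3 had an unadjusted p of 0.042. Cdkn3 was called lower, by 0.94, without NCSC 3 (adjusted p = 0.00311). Around Cdkn2a on chromosome 4, Mtap, by RefSeq order the next protein-coding gene on one side, fell by 0.66 ± 0.095. Elavl2, 4 protein-coding genes away on the other side, was at least 22.8-fold lower, and Dmrta1, between Cdkn2b and Elavl2, was at the lowest value on all arrays. Farther away, Klhl9 and Focad differed by 0.32 and -0.32 and lost their calls when single arrays were left out, and Hacd4 was not called.

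The arrays of a group were not equally alike. MSC 1 and MSC 3 had a median absolute difference of 0.0787 over all genes, and NCSC 1 and NCSC 2 of 0.102. MSC 2 differed from the other MSC arrays by 2-fold or more in 2.62% to 2.69% of genes, and NCSC 3 from the other NCSC arrays in 4.63% to 4.98%. MSC 2 was the highest MSC array for 28 of the 38 network genes (73.7%), against 35.7% of all genes, and for 17 of the 20 genes lower in NCSC. Genes of proliferation went the other way on that array: MSC 2 was the lowest MSC array for 15 of 15, against 47.1% of all genes, and NCSC 3 was the highest NCSC array for 15 of 15, against 38.2% of all genes.

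Summed intensity of the 15 proliferation genes was 79205 to 95121 in MSC, 56834 on NCSC 1, 60543 on NCSC 2 and 109238 on NCSC 3. Of these 15 genes, 1 (Foxm1, 6.67%) was lower in NCSC in the comparison of all arrays, against 29.1% of all genes. That call was lost without NCSC 2 (adjusted p = 0.0547). Without NCSC 3, 12 of the 15 were lower, and 68.4% of all genes changed in either direction. The network counts were 10 higher and 21 lower without NCSC 3. They were 11 higher and 18 lower without MSC 2, where 61.8% of all genes changed. The part of proliferation in the network's differences was not tested.

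**Figure D5:**
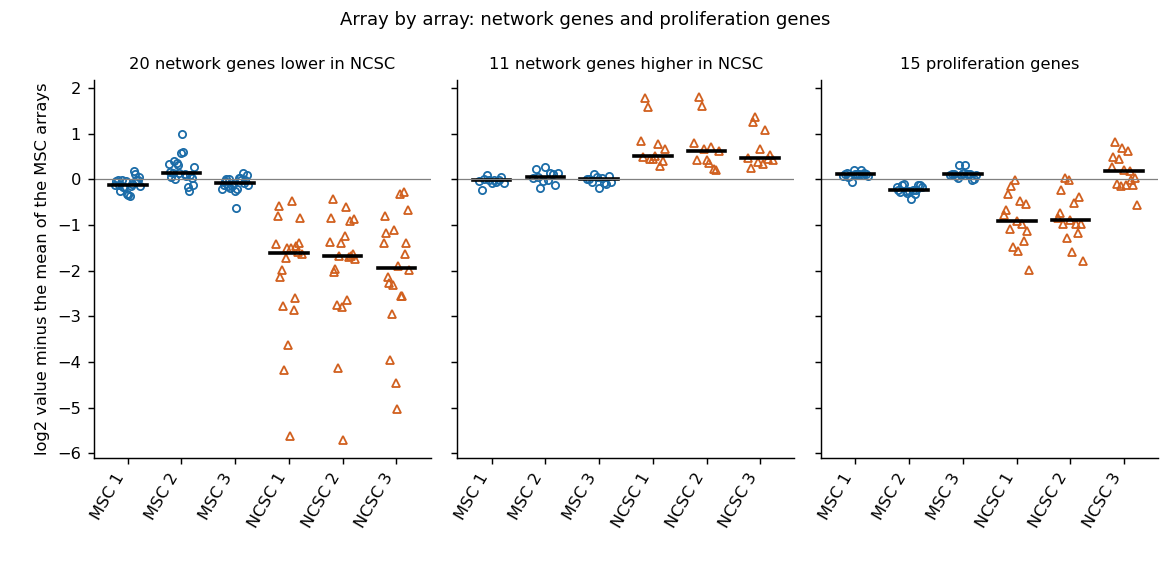
Each array's log2 level minus the mean of the MSC arrays, for the 20 network genes lower in NCSC, the 11 higher and the 15 proliferation genes (points are genes, bars their medians). Proliferation genes are lowest of the MSC arrays on MSC 2 and highest of the NCSC arrays on NCSC 3.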

How the data were processed

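The authors' deposited table holds linear intensity values for 45101 probe sets on 6 arrays, normalized with GCRMA per the submitters' processing notes, which give no version. GCRMA corrects for background by probe composition and shrinks dim probe sets to a common lowest value, so low levels have little resolution. Intensities were taken to log2. The platform annotation gives 1 gene for 34945 of them, which were used, several for 932 and none for 9160, beside 64 Affymetrix controls.

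A probe set was kept when its log2 value was above 4 on at least 3 arrays, and a gene was represented by its brightest kept probe set. Groups were compared by a two-sided moderated fit (limma 3.58.1, functions lmFit and eBayes; R 4.3.3), with Benjamini-Hochberg adjustment over 10501 genes and calls at 0.05. The script was tested on simulated data. A fold is "at least" where the dim group's mean is at or under 4, with its arrays set to 4 where lower. The 40 genes were named by role; from each other list, the 2 largest and 2 smallest called differences of at least 2-fold could be named. The members and lists were chosen with earlier results of these data known. In the promoter windows further motifs were looked at and are not reported. Alternatives covered filters, floor, probe set choice, scaling, variance model, a replicate block and arrays left out.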

Additional observations from a re-analysis of the deposited data

How the results depend on the processing

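Of the 31 network genes called, 22 kept their call and direction in each of the 18 alternatives that tested them and 9 lost it in at least 1. The genes called higher numbered 7 with no filter on low values and 7 to 11 with single arrays left out, with 7 without MSC 1 and without MSC 3. Of all genes, 32% were called with no filter and 54.3% to 68.4% with single arrays left out. With the closest arrays of each cell type averaged, an alternative added after seeing the data that left 2 values a group, 22 network genes were called, 5 higher and 17 lower, and 4565 genes in all. The median difference was -0.46 with log2 above 4 on all 6 arrays, which drops the dimmest genes, and -0.78 to -0.52 with single arrays left out, the last without NCSC 3. Differences near 0 changed sign: Zmat3 -0.010, Phlda3 -0.021 and Rrm2b -0.051 with array medians made equal, Rrm2b -0.043 with quantile normalization, Cdkn2d -0.18 with array weights and -0.21 without MSC 2 and NCSC 3 together, and Cdkn2c 0.015 and Rrm2b -0.075 with the closest arrays averaged; the cause was not tested. With single arrays left out, differences ran from -0.0063 to 0.12 for Zmat3, -0.033 to 0.14 for Phlda3, -0.097 to 0.19 for Rrm2b, -0.31 to 0.043 for Cdkn2c and -0.29 to 0.30 for Cdkn2d. The replicate block gave 6257 genes and 28 network genes, 8 higher and 20 lower, and lost Ccnd1, Cdkn1b and Sesn3. Deviations of same-numbered arrays correlated at -0.0985, 0.0621 and 0.0729, beside -0.1056 to 0.1095 for arrays of unlike number. With 3 arrays a group, such weak correlations cannot tell whether same-numbered samples were paired. GCRMA's lowest value limits what dim genes such as Perp, Plk3 and Tnfrsf10b can show.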
